A study of Mus musculus with 6 samples.

Results

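Steroid receptor genes and genes that answer to progestins were examined in T cells sorted from the blood of progestin-treated mice. The 8 genes were the nuclear receptor genes Nr3c1, Nr3c2, Pgr and Esr1, the membrane progesterone-binding genes Pgrmc1 and Pgrmc2, and the hormone-induced genes Fkbp5 and Tsc22d3. They were chosen by name, and every probe set annotated with exactly 1 of these symbols was taken, which gave 17 of the 45141 probe sets. Of the 8 genes, 7 were measured in this way, since no probe set names Pgrmc2 here. The cells were CD3+ CD62L- CD44high effector lymphocytes from 3 female C57BL/6 mice (A, C and D), 6 to 8 weeks old, and each mouse gave a CD11c+ and a CD11c- sample of 300 cells. Both fractions shared the treatment, 3 mg of Depo-Provera under the skin, which the sample labels place 5 days before the animals were killed and the methods 1 day earlier. No untreated animal was compared, so the values describe 2 fractions under the hormone and not a response to it. Each sample was hybridised to its own array, and its values are log2 signals after RMA, which corrects the background, makes the arrays' distributions nearly alike and summarizes the probes of a set.

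Steroid receptors are transcription factors held in an inactive complex by HSP90 and its cochaperones until a hormone binds. The glucocorticoid (Nr3c1), mineralocorticoid (Nr3c2) and progesterone (Pgr) receptors recognise the same DNA element, whereas the estrogen receptor (Esr1) has an element of its own. Depo-Provera is medroxyprogesterone acetate, a long-acting progestin that also binds the glucocorticoid receptor. Glucocorticoids act on lymphocytes through Nr3c1, and Fkbp5 and Tsc22d3 are widely used readouts of that action.

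The shared element of these receptors was looked for in the DNA upstream of the genes. The windows that held its half-site are printed, and the Fkbp5 window is printed though it held none. The other windows, among them those of further start sites of Tsc22d3, held none and are not printed. Sequences from RefSeq (GRCm38.p6) were taken for 7 of the 8 genes, with 10 start sites in all. Nr3c1 was left out and not searched, although the windows of its chromosome count in the share over all windows. Capitals mark AGAACA, the half-site of that element, or TGTTCT, the same letters on the other strand. The 250 bases that end just before the start site read as follows, 5′ to 3′ on the gene's strand.
Fkbp5, chr17:28486150-28486399, minus strand: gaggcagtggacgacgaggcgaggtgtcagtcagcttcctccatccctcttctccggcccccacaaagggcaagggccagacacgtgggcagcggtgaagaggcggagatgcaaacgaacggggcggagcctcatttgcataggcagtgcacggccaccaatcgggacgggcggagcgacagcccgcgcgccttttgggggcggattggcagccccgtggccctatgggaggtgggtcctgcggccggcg
Tsc22d3, chrX:140600523-140600772, minus strand: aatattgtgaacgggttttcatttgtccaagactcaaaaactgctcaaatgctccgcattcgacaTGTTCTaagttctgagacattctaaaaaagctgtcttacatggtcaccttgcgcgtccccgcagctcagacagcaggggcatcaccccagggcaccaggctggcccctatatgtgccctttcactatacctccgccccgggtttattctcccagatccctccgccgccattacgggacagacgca
Pgrmc1, chrX:36597943-36598192, plus strand: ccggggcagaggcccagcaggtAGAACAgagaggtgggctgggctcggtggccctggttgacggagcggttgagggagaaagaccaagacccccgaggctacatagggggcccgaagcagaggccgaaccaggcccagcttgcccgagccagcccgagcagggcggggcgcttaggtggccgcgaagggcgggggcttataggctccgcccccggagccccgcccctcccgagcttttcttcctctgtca
The half-site began 185 bases before this start of Tsc22d3 and 228 bases before that of Pgrmc1, and these were the 2 of the 10 windows that held it. Among 32851 such windows of the genome 16.1% held it. The full inverted repeat, GAACA and TGTTC with 3 bases between them, which contains the half-site where an A precedes it, was in 0 of the 10 windows and in 0.0396% of all windows. These matches are letters in a window and were not tested as binding sites.

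The arrays were compared with limma over all probe sets with the mouse as a block, two-sided, with Benjamini-Hochberg adjustment over all probe sets and a threshold of 0.05. Differences are CD11c+ minus CD11c- on the log2 scale. Array medians ran from 4.40 to 4.54. A level was called above background when the mean of a fraction exceeded 5.60, under which lay 95% of 39 genes that mark unrelated tissues. Of all probe sets 508 passed, 432 of them higher in CD11c+ cells (0.957%) and 76 lower (0.168%), and 0 passed without the arrays of mouse A (5563 at an unadjusted p under 0.05). The CD3 chain genes, which define T cells, were above background in both fractions, with differences of -1.19 to -0.49 and 0 of 4 past the threshold. All 4 were lower in CD11c+ cells in 3 of 3 mice, against 26.4% of all probe sets. Markers of other blood cells stood apart between the fractions. Of 11 measured basophil and mast cell genes 7 were higher in CD11c+ cells and 0 lower, and their summed linear signal was 2829 to 4576 in CD11c+ and 212.5 to 225.6 in CD11c- samples. Of 15 monocyte and macrophage genes 9 were higher and 0 lower, with sums of 8205 to 10176.5 in CD11c+ and 1758 to 2263 in CD11c- samples. Of 12 dendritic genes 6 were higher, with sums of 12110 to 14782 in CD11c+ and 733.3 to 1450 in CD11c- samples, and of 11 B cell genes 2 were higher. Among 9 NK cell genes 2 were higher and 1 lower, and among 12 T cell genes 0 were higher and 2 lower. Of these 12 T cell genes, which include the CD3 chains, 11 were lower in 3 of 3 mice. Of 7 red cell and platelet genes 1 was higher, and of 10 neutrophil genes 1 was higher, S100a8 and S100a9 being below background in both fractions. The part of these cells in the levels that follow was not tested, and in such bulk samples fewer cells of a type and less RNA per cell cannot be told apart.

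Nr3c1 was the 1 nuclear receptor gene of the 4 with a level above background, and it was so in both fractions with each of its 5 probe sets. The brightest, 1453860_PM_s_at, had log2 values of 8.75, 8.69 and 8.64 in the CD11c+ cells of mice A, C and D, against 8.83, 8.84 and 8.97 in their CD11c- cells. The fractions did not overlap, and the CD11c+ value was the lower one in 3 of 3 mice. The difference was -0.19 (standard error 0.133, 95% interval -0.54 to 0.17, adjusted p = 0.645 from limma), so it did not pass the test, and it was 0.55 with arrays centred on the CD3 chains. Probe set 1421867_PM_at also had no overlap, with 7.03, 7.11 and 6.99 in CD11c+ cells against 7.18, 7.38 and 7.20 in CD11c- cells, and its difference of -0.21 did not pass either (adjusted p = 0.585).

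With the other 3 probe sets of Nr3c1 the fractions overlapped. Probe set 1421866_PM_at had 7.25, 8.13 and 7.42 in CD11c+ cells of mice A, C and D, against 7.56, 6.42 and 8.00 in CD11c- cells. Mouse C alone was higher in CD11c+ cells. The difference was 0.27 with all mice (adjusted p = 0.848 from limma) and -0.44 without mouse C. Probe set 1460303_PM_at had 6.33, 6.32 and 5.95 in CD11c+ cells against 6.35, 5.30 and 5.62 in CD11c- cells, a difference of 0.44 (95% interval -0.20 to 1.08, adjusted p = 0.542). Here too mouse C had the widest gap, 1.02, while mouse A was nearly even. Probe set 1431378_PM_at had a difference of -0.037. Of the 5 probe sets 2 had a positive and 3 a negative difference, none past the threshold.

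The remaining nuclear receptor genes were not above background in either fraction. Nr3c2, whose product binds aldosterone and glucocorticoids, had 3.60, 3.62 and 3.92 in CD11c+ cells, against 3.80, 3.92 and 3.75 in CD11c- cells. Pgr, the nuclear target of progestins, was dim with each of 3 probe sets, with means of 2.68 to 3.31 in CD11c+ and 2.90 to 3.33 in CD11c- cells. The probe set 1455772_PM_at of Pgr was lower in 3 of 3 mice, with 2.95, 3.00 and 2.96 in CD11c+ against 3.50, 3.00 and 3.26 in CD11c- cells (difference -0.29, adjusted p = 0.557 from limma), though mouse C was nearly even. A dim probe set does not show that a receptor is absent.

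Esr1, the estrogen receptor gene, had a wider span among mice than between fractions. Its values were 3.94, 5.13 and 5.88 in the CD11c+ cells of mice A, C and D, against 4.02, 4.77 and 5.38 in their CD11c- cells. Both fractions put the mice in the same order, with mouse A lowest and mouse D highest, and the value of mouse D exceeded 5.60 in CD11c+ cells alone. The means of the 2 arrays of a mouse spanned 1.65, a span that 0.614% of all probe sets reached, while the difference between fractions was 0.26 (95% interval -0.19 to 0.72, adjusted p = 0.612 from limma). With 1 array of each fraction per mouse, the span among mice was not tested.

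Pgrmc1 encodes a heme-binding membrane protein linked to progesterone signalling and sterol metabolism. Its probe set had 6.42, 6.10 and 5.78 in CD11c+ cells, against 6.25, 5.70 and 6.43 in CD11c- cells. Both means were above background, the lowest array standing at 5.70, and the fractions overlapped. The difference was -0.026 (95% interval -0.68 to 0.63, adjusted p = 0.973 from limma), with CD11c+ higher in 2 of 3 mice and 0.64 lower in mouse D.

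Fkbp5 encodes a cochaperone that lowers the hormone affinity of the receptor complex and is itself induced by that receptor. The probe set 1448231_PM_at had 7.39, 7.15 and 7.46 in the CD11c+ cells of mice A, C and D, against 7.33, 7.68 and 7.28 in CD11c- cells. Mouse C went against the other 2 mice, with a difference of -0.53. Over 3 mice the difference was -0.097 (standard error 0.193, 95% interval -0.61 to 0.42, adjusted p = 0.859 from limma). The second probe set, 1416125_PM_at, had 6.51, 6.57 and 6.58 in CD11c+ cells against 6.67, 6.24 and 6.90 in CD11c- cells (difference -0.047, adjusted p = 0.931). The CD11c+ values of that probe set lay within the range of the CD11c- values. The third, 1447736_PM_at, was not above background, with means of 2.86 in CD11c+ and 2.84 in CD11c- cells.

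Tsc22d3 encodes GILZ, a leucine zipper protein through which glucocorticoids restrain T cell activation. Its brightest probe set, 1425281_PM_a_at, had 9.43, 8.16 and 9.72 in the CD11c+ cells of mice A, C and D, against 8.79, 8.92 and 9.12 in CD11c- cells. Mice A and D were higher in CD11c+ cells, by 0.64 and 0.59, and mouse C was 0.75 lower. The difference over 3 mice was 0.16 (standard error 0.331, 95% interval -0.72 to 1.05, adjusted p = 0.865 from limma) and 0.62 without mouse C (adjusted p = 0.429). Probe set 1420772_PM_a_at gave 7.72, 5.93 and 7.99 in CD11c+ cells against 7.18, 7.87 and 8.10 in CD11c- cells, a difference of -0.50 (adjusted p = 0.741) that became 0.22 without mouse C. The CD11c+ array of mouse C was the lowest of the 6 arrays with each of the 3 probe sets of Tsc22d3. The third, 1425557_PM_x_at, whose suffix marks probes that may also bind other transcripts, had means of 6.03 in CD11c+ and 6.17 in CD11c- cells and a difference of -0.14.

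**Figure D1:**
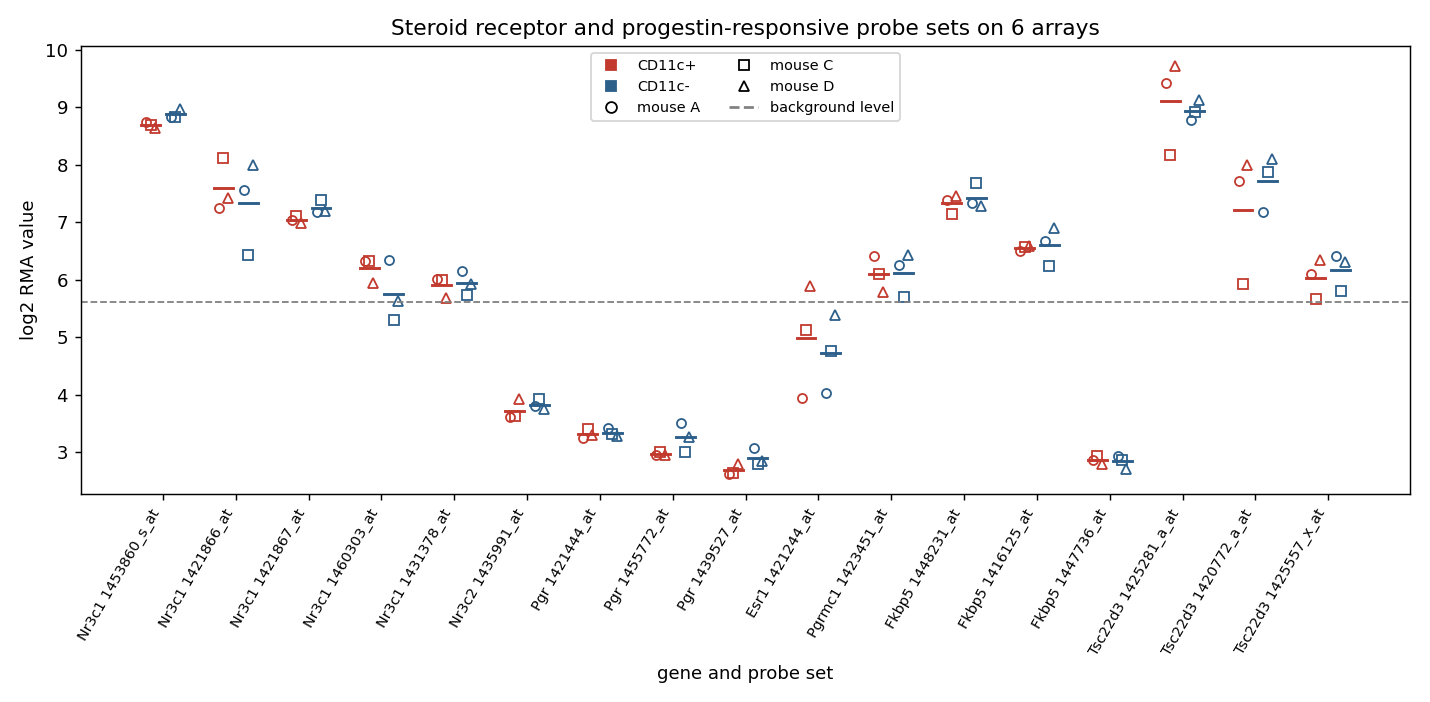
Log2 RMA values (vertical axis) of the 17 probe sets (horizontal axis) on 6 arrays, with red for CD11c+, blue for CD11c- and a marker shape per mouse. Horizontal ticks are means over mice and the grey dashes stand at 5.60, the background level, with the means of all probe sets of Nr3c1 and Pgrmc1 above it in both fractions, those of Nr3c2, Pgr and Esr1 below it, and the low red squares of Tsc22d3 being mouse C.

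Of the 17 probe sets 0 passed the test in limma, against 1.13% of all probe sets and 3.08% of those above background in a fraction, and 0 had an unadjusted p under 0.05, against 13.5% of all. The fractions did not overlap for 3 of the 17, 2 of Nr3c1 and 1 of Pgr, against 18.9% of all probe sets (27.1% of those above background in a fraction). All 3 were lower in CD11c+ cells, a pattern of 12.5% of all probe sets, and 0 were higher without overlap, against 6.4%. Of the 17, 4 were lower in 3 of 3 mice, against 26.4% of all, and 0 were higher in 3 of 3 mice, against 11.3%. The median difference of the 17 was -0.047, beside -0.089 over all probe sets. When arrays were centred on the CD3 chains all differences moved up by 0.739, so that 9 of the 17 passed, all 9 as higher in CD11c+ cells, and 50.2% of all probe sets passed with them. By a gene's brightest probe set or by the mean of its probe sets, 0 of the 7 genes passed.

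For 13 of the 17 probe sets the 95% interval lay within 1 log2 unit of 0 on both sides, and the exceptions were 1421866_PM_at and 1460303_PM_at of Nr3c1 and the 2 brighter probe sets of Tsc22d3. A failed test does not show that the fractions have the same level, and changes inside these intervals were not detectable with 3 mice. Larger changes could also go uncalled, since the intervals are per probe set and the threshold was on p adjusted over all probe sets. Rora, described below, had an interval of -2.21 to -0.86 and did not pass (adjusted p = 0.0995 from limma). An exact sign-flip permutation test over 3 mice cannot go below a two-sided p of 0.25 and was not used. The span among mice exceeded the difference between fractions for 12 of the 17 probe sets, against 69.1% of all probe sets.

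**Figure D2:**
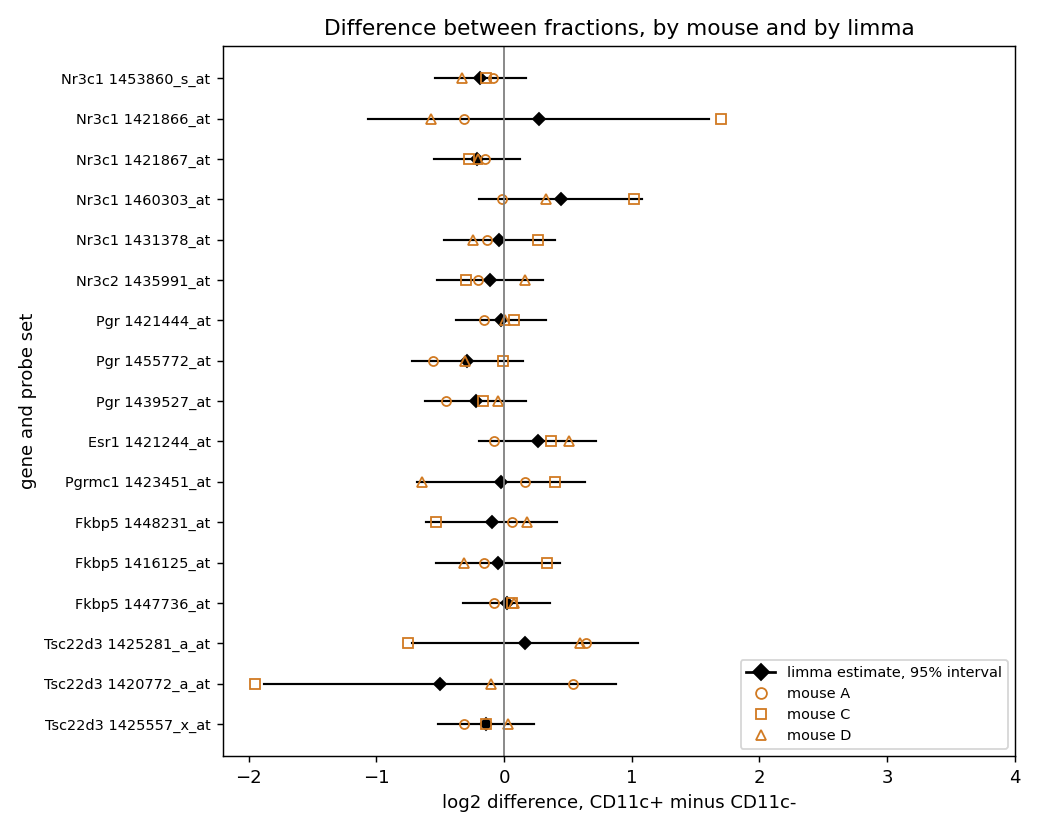
Log2 difference, CD11c+ minus CD11c- (horizontal axis), of each probe set (vertical axis), with open symbols for the 3 mice and black diamonds with bars for the limma estimate and its 95% interval. All 17 intervals include 0, and in the 2 widest, of Tsc22d3 1420772_PM_a_at and Nr3c1 1421866_PM_at, the symbol of mouse C lies outside the interval.

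Genes with the most similar profile were sought over the 6 arrays among 6776 genes with a mean above background, by the root mean square difference of the deviations from each gene's own mean. Nr3c1 was closest to Erdr1 (0.040) and the ribosomal protein gene Rps20 (0.042), and Fkbp5 to the RNA helicase gene Ddx39a (0.052) and to Vamp1 (0.060). Pgrmc1 was closest to Zfp809 (0.053) and to the adhesion receptor gene Icam1 (0.093). Tsc22d3 had no neighbour as close, the nearest being Cipc (0.128) and Cmas (0.142). None of these neighbours passed the test, which is no separate result, since they were chosen for likeness to genes that had not passed.

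No gene of the machinery around the receptors passed the test. Of 24 other steroid and nuclear receptor genes 0 passed by limma, against 1.63% of all genes, and 8 were under 0.05 before adjustment, against 14.8% of all genes. The 24 genes, which include Nenf and Cyb5d2 though neither is a receptor, had a median difference of -0.13 beside -0.086 over all genes. Rora, a retinoid-related orphan receptor of T cells, had 8.71, 8.80 and 7.99 in CD11c+ cells against 9.91, 10.01 and 10.18 in CD11c- cells. Its fractions did not overlap, and its difference was -1.53 (adjusted p = 0.0995). Rara, a retinoic acid receptor, had a difference of 0.48 (adjusted p = 0.249). Of 14 chaperone and cochaperone genes 0 passed, with 3 under 0.05 before adjustment (14.8% of all genes) and a median of 0.11. Hspa8, the constitutive HSP70 that loads the receptor onto HSP90, had means of 10.85 in CD11c+ and 10.71 in CD11c- cells, and Hsp90b1, the HSP90 of the endoplasmic reticulum, 10.44 in CD11c+ and 9.95 in CD11c- cells (adjusted p = 0.246). Of 12 coregulator genes 0 passed, with 4 under 0.05 before adjustment (14.8% of all genes) and a median of 0.29. Crebbp, a histone acetyltransferase, had a difference of -0.51 (adjusted p = 0.211) and Ncoa3, a steroid receptor coactivator, one of 0.31 (adjusted p = 0.703).

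Among other genes known to answer to the glucocorticoid receptor some passed in each direction. Of 32 measured genes of that list 3 rose, against 1.4% of all genes, 1 fell, against 0.222% of all genes, and 28 did not pass in limma, and the median difference was 0.36 beside -0.086 over all genes. Only 10 of the 32 were below background in both fractions, and of probe sets above background in a fraction 3.08% passed in either direction. This list, like the others, was chosen with earlier results of these data known. Its shares, here and below, therefore do not test for an excess of such genes. Tgm2, a transglutaminase, had 7.99, 8.79 and 6.60 in CD11c+ cells against 5.31, 4.82 and 3.79 in CD11c- cells. Tgm2 was at least 4.56-fold higher when the CD11c- values below background were set to the background level, with a difference of 3.15 as measured (adjusted p = 0.0343), while its other probe set had 1.26 (adjusted p = 0.118). Anxa1, an anti-inflammatory mediator of glucocorticoids, had 7.46, 7.86 and 8.23 in CD11c+ cells against 5.89, 6.16 and 6.78 in CD11c- cells, a difference of 1.58 (standard error 0.133, adjusted p = 0.0258). The gap was nearly equal in the 3 mice, between 1.45 and 1.71. Gadd45a, a stress-response gene, had 7.42, 6.53 and 7.16 in CD11c+ cells against 5.83, 5.09 and 5.66 in CD11c- cells, a difference of 1.51 (adjusted p = 0.0256), or at least 2.53-fold with the CD11c- array of mouse C, which was below background, set to that level. Rgcc, a regulator of the cell cycle, fell by 2.03 on the log2 scale, with 5.97, 5.45 and 5.91 in CD11c+ cells against 8.28, 7.17 and 7.96 in CD11c- cells (adjusted p = 0.0245). The fractions of these 4 genes did not overlap, and each gene kept its direction in 3 of 3 mice. That adds no support, since the 4 genes were picked by a test on the same arrays. Of the brightest genes of the list, Txnip had a difference of -0.100 (adjusted p = 0.811). Rgs2, an inhibitor of G protein signalling, depended on the probe set, with differences of 1.44 (adjusted p = 0.06) for the brightest, 2.27 for 1419248_PM_at, which passed (adjusted p = 0.024), and 2.40 for the dimmest (adjusted p = 0.0573). Likewise Cdkn1a, a cell cycle inhibitor, and Dusp10, a MAP kinase phosphatase, passed with a dimmer probe set, with differences of 2.33 (adjusted p = 0.0284) and -1.58 (adjusted p = 0.0318), and not with the brightest (adjusted p = 0.145 for Cdkn1a and 0.329 for Dusp10).

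When the probe sets of a gene were averaged, in a fit over 17097 genes, 9 genes of this list were higher and 3 lower, against 3.29% of all genes that passed in either direction. The higher ones there were Tgm2, Anxa1, Gadd45a, Rgs2, Cdkn1a, Ddit4, Dusp1, Mt1 and Cd163, the last below background in both fractions. The lower ones there were Rgcc, Zbtb16, a transcription factor of innate-like T cells, and Sesn1. Without mouse A none of Tgm2, Anxa1, Gadd45a and Rgcc passed (adjusted p = 0.161 to 0.188), with differences of 3.39 for Tgm2, 1.58 for Anxa1, 1.47 for Gadd45a and -1.89 for Rgcc. Rgcc, Anxa1 and Gadd45a did not pass without mouse C or without mouse D either (adjusted p = 0.0593 to 0.131), with differences of -2.18 and -2.02 for Rgcc, 1.51 and 1.64 for Anxa1 and 1.54 and 1.51 for Gadd45a, and Tgm2, Anxa1 and Gadd45a failed without the mouse block (adjusted p = 0.0619 to 0.0767). Tgm2 also failed after median centring (adjusted p = 0.0513) and after cyclic loess (adjusted p = 0.0576). Monocyte and macrophage genes moved with this list, 9 of 15 higher, and basophil and mast cell genes, 7 of 11 higher, and their part in it was not tested.

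Of 22 measured progesterone receptor targets known from the uterus and mammary gland 1 rose, against 1.4% of all genes, 0 fell, against 0.222%, and 21 did not pass, with a median difference of -0.12 beside -0.086 over all genes. Ccnd1, cyclin D1, had 8.98, 9.28 and 8.52 in CD11c+ cells against 6.89, 6.36 and 6.32 in CD11c- cells, a difference of 2.40 (standard error 0.214, adjusted p = 0.0293 from limma). Its other 2 probe sets had 1.75 (adjusted p = 0.107) and 1.10 (adjusted p = 0.157). Stat5b and Stat5a, the brightest of the list and both signal transducers of cytokine receptors, had differences of -0.38 (adjusted p = 0.492) and 0.0020 (adjusted p = 0.998). Ccnd1 did not pass when any 1 mouse was left out (adjusted p = 0.051 to 0.177), with differences of 2.15 to 2.56. With the probe sets of a gene averaged, 3 of the 22 were higher and 0 lower, against 3.29% of all genes in either direction. These were Ccnd1, Bcl6 (difference 1.82, adjusted p = 0.0207 from limma) and Lifr (0.91, adjusted p = 0.0418), the last below background with each probe set. The brightest probe set of Bcl6 had a difference of 2.19 and did not pass (adjusted p = 0.106).

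Among 27 measured genes of steroid synthesis and metabolism 1 rose, against 1.4% of all genes, 0 fell, against 0.222%, and 26 did not pass, with a median difference of -0.081 beside -0.086 over all genes. The list also held the receptor coactivator Ncoa4 and the efflux transporters Abcb1a and Abcb1b, which are not enzymes of steroids and did not pass. The gene that rose was Cyp11a1, the mitochondrial enzyme that cleaves the side chain of cholesterol and so opens the synthesis of all steroid hormones. Its probe set 1448804_PM_at had 9.08, 9.68 and 9.89 in the CD11c+ cells of mice A, C and D, against 3.65, 3.77 and 4.02 in their CD11c- cells. The CD11c- values were all below background, and the CD11c+ cells were at least 15.4-fold higher, with a difference of 5.74 as measured (standard error 0.162, adjusted p = 0.00498). The second probe set of Cyp11a1 was below background in both fractions, with a difference of -0.30 (adjusted p = 0.522). Star, which carries cholesterol to that enzyme, had means of 5.64 in CD11c+ and 5.94 in CD11c- cells, close to the background level. Tspo, a mitochondrial outer membrane protein, had 9.29 in CD11c+ and 9.38 in CD11c- cells, and Hsd17b10, a mitochondrial dehydrogenase, 8.10 in CD11c+ and 8.76 in CD11c- cells (adjusted p = 0.135).

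Basophil and mast cell genes moved with Cyp11a1. Ms4a2, a chain of the IgE receptor, had means of 9.40 in CD11c+ and 3.04 in CD11c- cells, Cpa3, a mast cell and basophil protease, 8.47 in CD11c+ and 3.24 in CD11c- cells, and Mcpt8, a basophil protease, 8.52 in CD11c+ and 4.52 in CD11c- cells. The mast cell genes Mcpt4 and Kit were below background in both fractions. Their part in the level of Cyp11a1 was not tested. With mouse A left out, where no probe set of the array passed, Cyp11a1 had a difference of 5.89 (adjusted p = 0.0848 from limma).

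**Figure D3:**
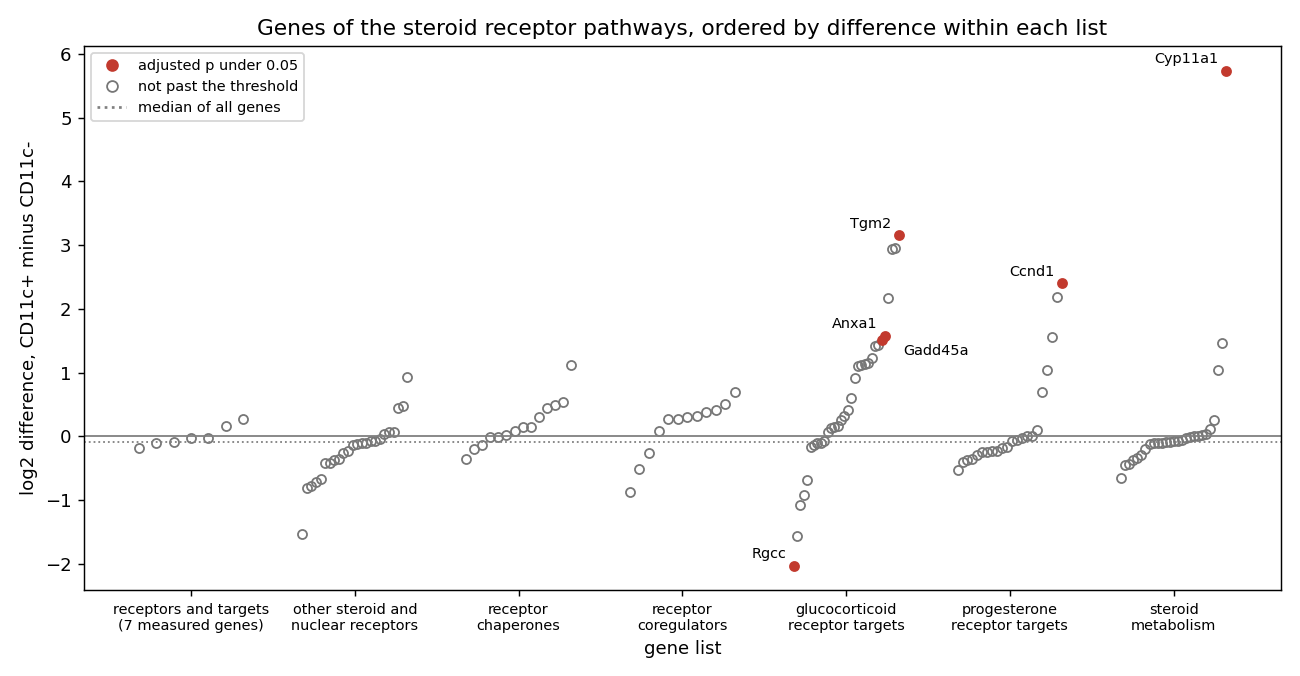
Log2 difference, CD11c+ minus CD11c- (vertical axis), of each measured gene in 7 lists (horizontal axis), ordered within a list, with filled red symbols for an adjusted p under 0.05 and a dotted line at the median of all genes. Each gene is shown by its brightest probe set, and by these the 7 measured receptor and target genes lie between -0.19 and 0.26. Glucocorticoid receptor targets past the threshold lie on both sides, and Cyp11a1 stands at 5.74.

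**Figure D4:**
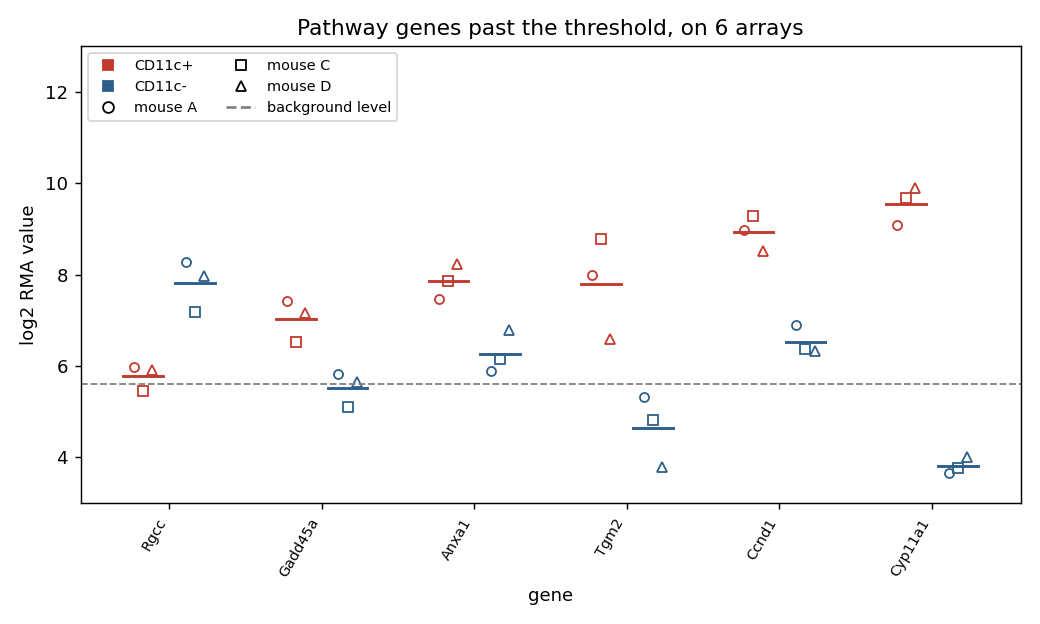
Log2 RMA values (vertical axis) of the 6 pathway genes past the threshold (horizontal axis) on 6 arrays, with red for CD11c+, blue for CD11c- and a marker shape per mouse. Horizontal ticks are means over mice and the grey dashes stand at 5.60, the background level, no gene having overlapping fractions and Cyp11a1 having CD11c- values of 3.65 to 4.02.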

How the data were processed

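RNA from 300 sorted cells per sample was amplified and hybridised to 1 single-colour Affymetrix array each. The authors read the arrays with the instrument's software and applied RMA, and each deposited value is a log2 signal. The submitters' processing notes list RMA and limma, with no version in the sources used here. RMA hides a change in total RNA per cell, and amplification from few cells adds noise, most of all to dim probe sets.

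The log2 values of all 45141 probe sets were fitted with limma 3.58.1 (R 4.3.3), with the mouse as a fixed block because the labels give each pair of arrays to 1 mouse. Deviations from the group means correlated at 0.122, 0.0758 and 0.109 within mice and between -0.086 and -0.022 across mice. A single gene was annotated to 28898 probe sets, 551 had more than 1 and 15692 had no name. A gene of a list was represented by its brightest probe set.

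The members and lists were chosen with earlier results of these data known. Named were all members, list genes past the threshold (up to 4) and the 2 brightest of each list, up to 3 defining genes of a cell type, and genes of similar profile. Zbtb16, Sesn1, Cdkn1a, Ddit4, Dusp1, Mt1, Cd163, Dusp10, Bcl6, Lifr, Star, Mcpt4 and Kit were picked after their values were seen. Nenf, Cyb5d2, Ncoa4, Abcb1a and Abcb1b were named to describe their lists. The fit was first tested on simulated data, where it recovered 0% of changes of 1 log2 unit, 34% of 2, 94% of 4 and 98% of 6. It called 117 probe sets there, so its recovery need not match that in the data. Alternatives were the block, scaling, filter, variance model, threshold, probe set rule and leaving out each mouse.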

Additional observations from a re-analysis of the deposited data

How the results depend on the processing

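The count of 0 called among the 17 receptor and target probe sets held with no replicate block for the mouse or a random replicate block. It held with arrays centred on their median, after cyclic loess, with a trended or robust variance and at a threshold of 0.1. With a filter on dim probe sets it was also 0, though the filter removed Nr3c2, Pgr and the dimmest probe set of Fkbp5. Without any 1 mouse it was 0 as well. Without mouse A, however, 0 of all probe sets passed, so the count could not differ there. The count became 9 with arrays centred on the CD3 chains. That centring called 22644 of all probe sets and 83 pathway genes. Over the whole array 508 probe sets were called, against 895 with no replicate block, 1128 with a random replicate block, 891 with a trended variance, 1225 at a threshold of 0.1 and 0 to 392 without 1 mouse. Pathway genes called numbered 6, against 13 with a random replicate block, 11 with the filter, 14 with a trended variance, 17 at a threshold of 0.1 and 0 to 3 without 1 mouse. When the probe sets of a gene were averaged, 3.29% of all genes passed. In that fit 12 of 32 glucocorticoid receptor targets, 3 of 22 progesterone receptor targets and 2 of 27 steroid metabolism genes passed.

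Some differences changed sign. With arrays centred on the CD3 chains they were 0.69 and 0.64 for Fkbp5, 0.24 and 0.60 for Tsc22d3, 0.72, 0.52 and 0.45 for Pgr, 0.53, 0.70 and 0.55 for Nr3c1, 0.71 for Pgrmc1 and 0.63 for Nr3c2. After cyclic loess they were 0.030 for Fkbp5, 0.061 for Pgr, 0.049 for Pgrmc1 and 0.038 for Nr3c1, and with arrays centred on their median 0.0057 for Pgr and 0.0029 for Pgrmc1. Without 1 mouse, where signs also changed, the ranges were -0.24 to 0.088 for Fkbp5 1416125_PM_at, -1.03 to 0.22 for Tsc22d3 1420772_PM_a_at, -0.074 to 0.045 for Pgr 1421444_PM_at, -0.44 to 0.69 for Nr3c1 1421866_PM_at, -0.24 to 0.28 for Pgrmc1 1423451_PM_at, -0.079 to 0.62 for Tsc22d3 1425281_PM_a_at, -0.19 to 0.066 for Nr3c1 1431378_PM_at, -0.0051 to 0.071 for Fkbp5 1447736_PM_at and -0.24 to 0.12 for Fkbp5 1448231_PM_at. Centring adds 1 constant to all differences, 0.739 for the CD3 chains and 0.0286 for the median, and leaving out a mouse removes 2 arrays. The cause of the changes after cyclic loess was not tested. Precision is limited by the 6 arrays, which leave 2 residual degrees of freedom.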
